A study of Mus musculus with 12 samples.

Results

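Gata3, Tcf7, Lef1, Tox, Zbtb16, Rora, Nfil3, Tbx21, Eomes and Runx3 encode transcription factors best known from T cells and innate lymphoid cells. They were followed through every probe set that the array annotation gives to one of these symbols alone: 24 of 45037 probe sets, covering 9 of the 10 genes and 9 of 18193 genes in all. No probe set carried the symbol Tcf7 in the annotation used here, and Tcf7 was not analysed. The probe sets were picked by annotation alone, not by their values.

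The arrays held total RNA of cultured Ebf1-/- progenitors of strain C57BL/6, labelled pre-pro-B cells. All groups lacked endogenous EBF1 function and grew on OP9 stromal cells with stem cell factor, Flt3 ligand and interleukin-7. There were 4 groups of 3 arrays: in set 1 the control retrovirus MigR1, which encodes GFP, and the EBF1 retrovirus Mig-EBF1, and in set 2 MigR1 again and the PAX5 retrovirus Mig-PAX5, with GFP-positive cells sorted 2 days after transduction. The labels leave unsaid if the replicates were cultures or animals of their own. The p-values below therefore reflect no more than array-to-array spread, which may be technical.

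Early lymphoid progenitors can still become T cells, natural killer cells, other innate lymphoid cells or B cells. GATA3 and the TCF7/LEF1 pair act early in the T lineage, GATA3, TOX, NFIL3 and ZBTB16 (also called PLZF) in the precursors of innate lymphoid cells, RORA in the type 2 branch, and TBX21 (T-bet), EOMES and RUNX3 in natural killer and cytotoxic cells. EBF1 and PAX5 are the factors that drive B-lineage specification and commitment, and both are known to restrain genes of other lineages, Gata3 among those reported for EBF1.

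Several points on the arrays bear on all values. The median intensity of an array was 55.1 to 60.6 (set 1) or 65.3 to 68.9 (set 2), and precision is limited by how few arrays there are. Equally numbered control arrays of both sets were closer to each other (robust SD of the log2 difference 0.0392 to 0.0942) than arrays of one group were (0.211 to 0.359), and PAX5 arrays 2 and 3 were too (0.0774). Each such pair may be one hybridisation and was counted as 1 sample, which left 3 control, 3 EBF1 and 2 PAX5 samples. EBF1 array 3 stood apart in its marker lists: 17 stromal genes summed to an intensity of 12951, against 1237 and 3188 on the other EBF1 arrays and 950 to 2621 on the set 1 controls. The same array had the lowest sum of 7 B-lineage genes with EBF1, at 10867 against 18028 and 26882. Results with EBF1 include this array, and some are also given without it. The progenitor genes Flt3, Cd34, Il7r, Kit and Ptprc were measured in every group, while most T cell markers were dim. The 6 T cell markers summed to 225 to 301 on every array. Much of this sum came from Cd8a, which read 90.4 to 169.5, above the array medians. Cd4 was at or near the lowest values of the array.

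Tox encodes an HMG-box factor needed for innate lymphoid precursors and for CD4 T cell development. Its brightest probe set (1425484_at) read 1317, 1826 and 1338 on set 1 control arrays 1, 2 and 3 and 559, 664 and 1254 on EBF1 arrays 1, 2 and 3. All EBF1 arrays lay below all controls, but array 3 lay just below the lowest control while arrays 1 and 2 were far below it. Group means were 1494 ± 288 and 826 ± 375 (SD, n = 3 each). The log2 change was -0.91 (SE 0.28, 95% interval -1.56 to -0.27), with limma adjusted p = 0.32 over all probe sets. In set 2 the controls read 1335, 1828 and 1371 and the PAX5 arrays 684, 918 and 816. Here the groups were separate without exception, with a log2 change of -0.94 (SE 0.32, interval -1.66 to -0.22, limma adjusted p = 0.41). Tox was thus about 1.88-fold lower with EBF1 and 1.92-fold lower with PAX5, and neither change passed the test.

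The other Tox probe sets gave changes of like size. Probe set 1425483_at read 464 to 666 in the set 1 controls, then 222, 231 and 485 with EBF1 (log2 change -0.97, limma adjusted p = 0.30), and 517 to 825 in the set 2 controls against 283 to 315 with PAX5 (-1.16, 0.28). Probe set 1442039_at read 112 to 238 and then 51.0, 51.5 and 123 with EBF1 (-0.98, 0.38), and 307 to 618 against 186 to 252 with PAX5 (-0.91, 0.54). On all 3 probe sets EBF1 array 3 was the highest EBF1 array, and on these last 2 it fell within the range of the controls. The difference between the EBF1 and PAX5 changes of 1425484_at was 0.03 in log2, with a 95% interval from -0.69 to 0.75 (limma adjusted p = 0.98), an interval wide enough to hold a difference of either sign.

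Zbtb16 encodes the zinc finger protein PLZF, a factor of innate lymphoid precursors and natural killer T cells. Its brightest probe set (1419874_x_at) read 925, 829 and 656 on the set 1 controls and 203, 359 and 422 on EBF1 arrays 1, 2 and 3. The highest EBF1 array was below the lowest control, and array 3 was again the highest of the EBF1 arrays. Group means were 803 ± 137 and 328 ± 113 (SD, n = 3 each). The log2 change was -1.30 (SE 0.25, 95% interval -1.86 to -0.74, limma adjusted p = 0.13), or 2.46-fold lower. With PAX5 it read 397, 381 and 389 against 953, 834 and 695 in the set 2 controls, a separation of all arrays with a log2 change of -1.04 (SE 0.28, interval -1.67 to -0.41, limma adjusted p = 0.25), or 2.06-fold lower.

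Probe set 1439163_at followed the same course. It read 282, 327 and 323 on the set 1 controls and 89.2, 148 and 175 with EBF1 (log2 change -1.13, SE 0.21, limma adjusted p = 0.13), and 309, 347 and 369 on the set 2 controls against 159, 181 and 151 with PAX5 (-1.0, SE 0.23, adjusted p = 0.17). Its EBF1 and PAX5 groups both lay wholly below their controls. The difference between the 2 changes was -0.26 for 1419874_x_at (95% interval -0.88 to 0.37) and -0.13 for 1439163_at (-0.66 to 0.39). The PAX5 change of 1439163_at passed with all 12 arrays counted separately (limma adjusted p = 0.025, where 0.391% of all probe sets were called lower), with set 2 fitted alone (0.018; 0.2%) and without EBF1 array 1 (0.034; 0.0466%). Over all alternatives its adjusted p ran from 0.018 to 0.80. That of 1419874_x_at passed with set 2 fitted alone (0.024), within a range of 0.024 to 0.89. The same EBF1 probe sets passed with all 12 arrays counted separately, at limma adjusted p = 0.032 for 1419874_x_at and 0.026 for 1439163_at, where 0.169% of all probe sets were called lower. Counting arrays separately treats the near-identical pairs as replicates.

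The dimmest Zbtb16 probe set went its own way with EBF1. 1427638_at read 88.1, 104 and 92.3 on the set 1 controls and 114, 106 and 116 with EBF1, a small difference upward (log2 change 0.21, SE 0.11, limma adjusted p = 0.57). In set 2 it read 30.5, 28.5 and 35.3 on the controls and 21.5, 26.8 and 19.2 with PAX5 (-0.31, SE 0.12, adjusted p = 0.50). Its EBF1 arrays were all above and its PAX5 arrays all below their own controls, with a difference between the changes of 0.52 (SE 0.12, limma adjusted p = 0.089), which passed only with PAX5 arrays 2 and 3 counted as separate samples (0.042, where 1.22% of all probe sets were called higher). The files do not say which part of the transcript each probe set covers.

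**Figure D1:**
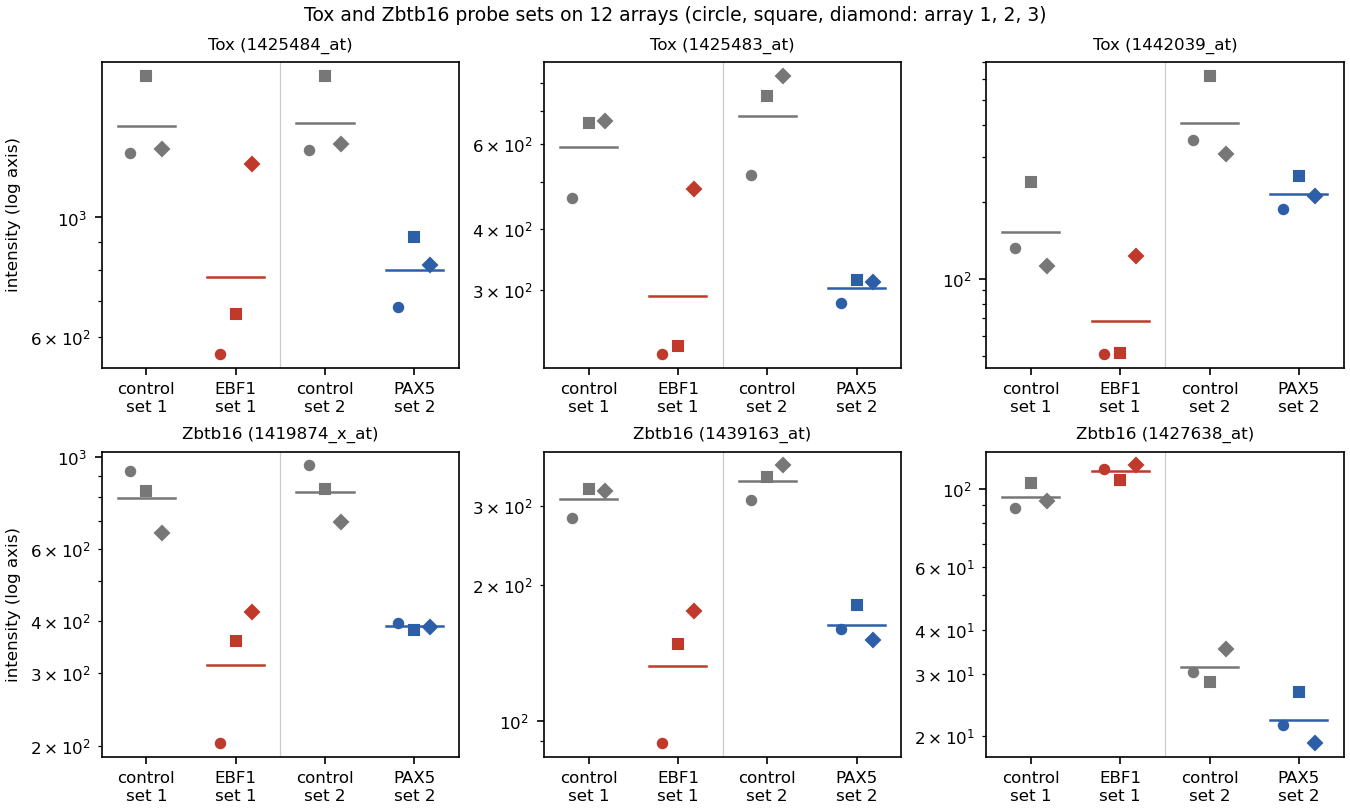
Intensity (log axis) of the 3 Tox and 3 Zbtb16 probe sets on each of 12 arrays, by group; symbols mark array 1 (circle), 2 (square) and 3 (diamond) and lines the geometric mean of the 3 arrays. The brightest Tox probe set reads 559 and 664 on EBF1 arrays 1 and 2 but 1254 on array 3, while its PAX5 arrays read 684 to 918. Zbtb16 1427638_at reads slightly higher with EBF1, unlike the other Zbtb16 probe sets, and lower with PAX5, as they do.

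Gata3, the zinc finger factor of T cells and type 2 innate lymphoid cells, was dim in the controls and nearly at the floor on EBF1 arrays 1 and 2. Its single probe set (1448886_at) read 57.9, 56.2 and 56.4 on the set 1 controls and 8.59, 4.73 and 74.6 on EBF1 arrays 1, 2 and 3. The first 2 EBF1 arrays were far below every control, and array 3 was above every control. Over the 3 arrays the log2 change was -1.02 (SE 0.47, 95% interval -2.09 to 0.05, limma adjusted p = 0.52). All log2 values here were taken after adding 16 to the intensity, which shrinks the change of a probe set this dim: the Gata3 change with EBF1 was -1.85 after adding 1 and -0.45 after adding 64 (adjusted p = 0.56 and 0.61). In set 2 Gata3 read 68.1, 61.0 and 66.7 on the controls and 48.3, 58.7 and 58.1 with PAX5. The PAX5 arrays were all lower, but by little: the log2 change was -0.23 (SE 0.52, interval -1.42 to 0.96, adjusted p = 0.96).

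Because Gata3 has an annotated start in the reference table, and because EBF1 was the forced factor under which it read lowest, its promoter is shown. RefSeq's table for GRCm38.p6 places the 250 bases upstream of the start on the minus strand, chr2:9878601-9878850, with a GC content of 70.0%. The sequence, 5′ to 3′ on the strand of the gene, has no letters in capitals because the motif searched was not found in it.
Gata3 promoter: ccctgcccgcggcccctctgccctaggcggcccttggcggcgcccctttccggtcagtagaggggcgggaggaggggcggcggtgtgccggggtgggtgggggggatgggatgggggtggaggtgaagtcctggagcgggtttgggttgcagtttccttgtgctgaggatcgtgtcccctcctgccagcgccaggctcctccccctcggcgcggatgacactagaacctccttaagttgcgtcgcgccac
The motif searched was CCCNNGGG, the core of the palindrome that EBF1 is known to bind, which reads the same on both strands. Of 32851 promoter windows of this length in the table, 3882 (11.8%) held it. Of the 13 windows of the listed genes, among them several starts of one gene but none of Tox or Zbtb16, 0 held it. This says only that these letters are not in these windows.

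When EBF1 array 3 was left out, 5 of the 24 probe sets passed limma's test with EBF1, all of them lower, against 0 with it. Of all probe sets 1.33% then passed, and 0.469% were lower. Gata3 stood at -1.69 (SE 0.14, adjusted p = 0.0015), Tox 1425484_at and 1425483_at at -1.25 and -1.32 (adjusted p = 0.024 and 0.019), and Zbtb16 1419874_x_at and 1439163_at at -1.50 and -1.31 (0.029 and 0.022). The remaining Tox probe set, 1442039_at, stood at -1.33 and did not pass (limma adjusted p = 0.077). Adjusted p over all alternatives by limma ran from 0.0015 to 0.83 for Gata3, from 0.024 to 0.68 for Tox 1425484_at and from 0.029 to 0.45 for Zbtb16 1419874_x_at. The Gata3 change with EBF1 also differed from that with PAX5 without this array (difference -1.46, limma adjusted p = 0.0038, where 1.03% of all probe sets were called lower), while with it the test of the difference did not pass (-0.79, adjusted p = 0.55). The test of this difference passed in no other alternative, and the array left out was the EBF1 array with the highest Gata3 value (74.6).

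Array 3 also differed from EBF1 arrays 1 and 2 in the marker lists. Its 5 progenitor genes summed to 11010, against 8605 and 8957 on arrays 1 and 2 and 10858 to 15469 on the controls. Cd34, a progenitor surface protein, read 2300 on array 3 against 725 and 522. Kit (190 against 43.5 and 37.9) and Flt3 (1709 against 1028 and 1299) were also higher on array 3. Il7r was lower (1823 against 2028 and 1841), and Ptprc lay between (4988 against 4781 and 5257). The 10 myeloid genes summed to 2843 on array 3, against 1609 and 1231 on arrays 1 and 2 and 3624 to 5457 on the controls. Most of this sum came from Fcgr3 and Mpo (2032 and 537 on array 3). The median log2 difference of the 10 genes from the set 1 controls was -0.36, -0.41 and -0.09 on EBF1 arrays 1, 2 and 3. Csf1r read higher with EBF1 (38.5 to 49.4 against 30.2 to 35.2). The 4 natural killer and innate lymphoid markers measured summed to 128 to 237 with EBF1 against 267 to 420 in the controls. With PAX5 they summed to 582 to 813 against 304 to 441. These shifts of the sum were mainly those of Klrd1 (log2 change -1.70 with EBF1 and 1.27 with PAX5). Prf1 stood at -0.04 and 0.73, Ncr1 at -0.43 and -0.18, and Il17rb at -0.15 with either virus. Stromal genes were highest and B-lineage genes lowest among the EBF1 arrays, as given above, and the part of any of these lists in the Gata3, Tox and Zbtb16 values was not tested. In bulk RNA of this kind fewer cells with a transcript and less transcript per cell cannot be told apart.

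**Figure D2:**
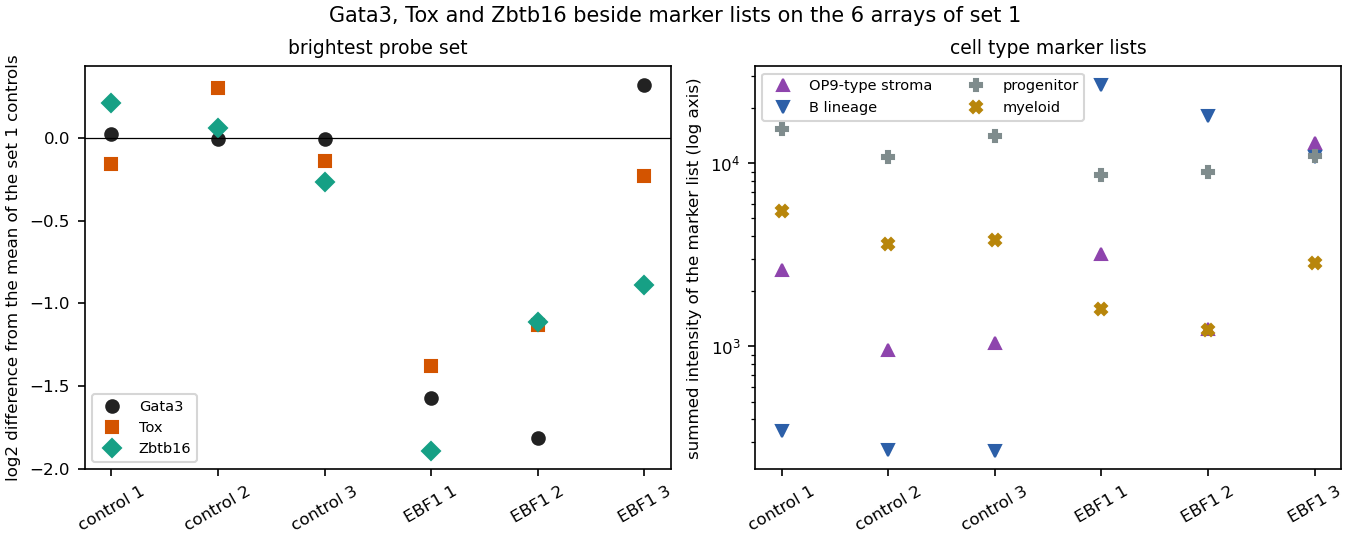
Left, log2 difference of intensity plus 16 from the mean of the set 1 controls for the brightest Gata3, Tox and Zbtb16 probe sets on each array of set 1; right, summed intensity (log axis) of 4 marker lists on the same arrays. On EBF1 array 3 the stromal sum is 12951, Gata3 is above the controls, and Tox and Zbtb16 are nearest to them among the EBF1 arrays.

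Runx3 encodes a Runt-domain factor of cytotoxic T cells and natural killer cells. Its bright probe set (1440275_at) read 1106, 1739 and 1218 on the set 1 controls and 871, 922 and 1137 with EBF1, and 1122, 1823 and 1276 on the set 2 controls against 1240, 966 and 1027 with PAX5. The groups overlapped in both sets, with the highest EBF1 array just above the lowest control. The log2 change was -0.45 with EBF1 (SE 0.20, 95% interval -0.89 to 0.00, limma adjusted p = 0.50) and -0.31 with PAX5 (SE 0.22, interval -0.81 to 0.19, adjusted p = 0.80). The dimmer 1421467_at read 46.5 to 62.9 on all arrays of set 1 and 52.8 to 71.3 on those of set 2, with log2 changes of -0.01 and -0.07.

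Nfil3, a basic leucine zipper factor needed early in innate lymphoid development, spread more among the controls than between groups. It read 165, 177 and 85.4 on the set 1 controls and 164, 188 and 168 with EBF1 (log2 change 0.31, SE 0.23, 95% interval -0.22 to 0.84, limma adjusted p = 0.72). In set 2 it read 182, 187 and 101 on the controls and 138, 219 and 170 with PAX5 (0.10, SE 0.26, interval -0.49 to 0.69, adjusted p = 0.97). In both sets control array 3 was the lowest, and all other values overlapped.

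Rora, the nuclear receptor of type 2 innate lymphoid cells, had 9 probe sets, all dim. The brightest (1436326_at) read 34.6, 38.0 and 47.4 on the set 1 controls and 50.4, 51.3 and 52.6 with EBF1, so that the EBF1 arrays all lay above the controls by a small step (log2 change 0.27, SE 0.13, limma adjusted p = 0.53). In set 2 it read 40.1, 43.9 and 57.8 on the controls and 57.4, 59.1 and 44.9 with PAX5, which overlap (0.16, SE 0.14, adjusted p = 0.84). Over the other 8, the log2 changes ran from -0.30 to 0.24 with EBF1 and from -0.29 to 0.39 with PAX5, with signs both ways.

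**Figure D3:**
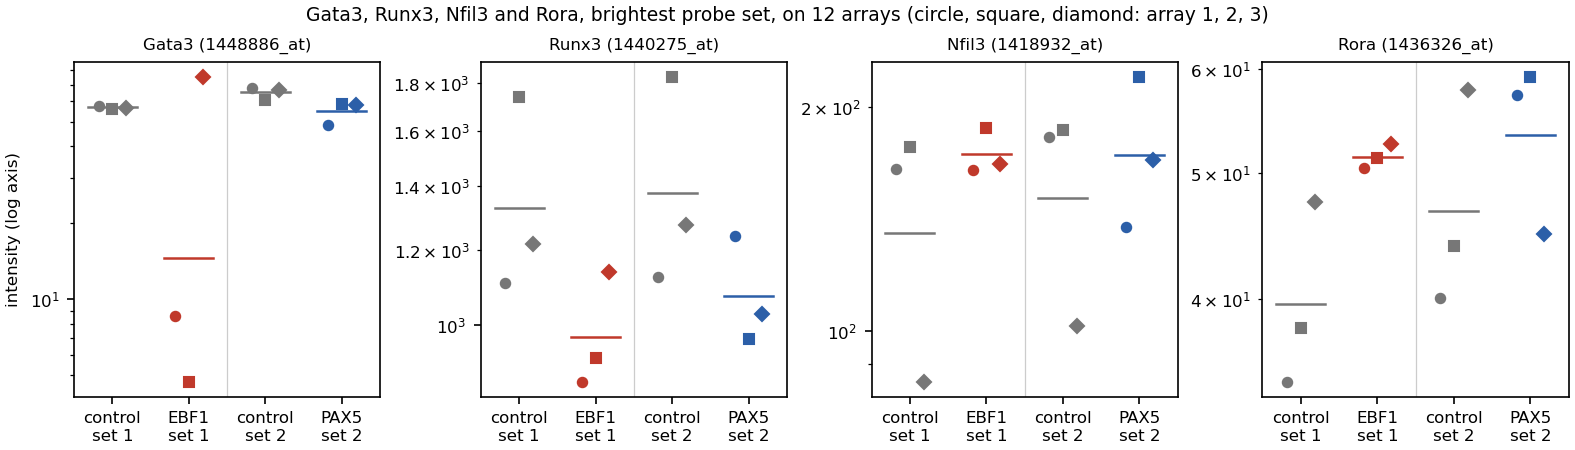
Intensity (log axis, a scale of its own in each panel) of the brightest Gata3, Runx3, Nfil3 and Rora probe sets on each of 12 arrays, by group; symbols mark array 1 (circle), 2 (square) and 3 (diamond) and lines the geometric mean of the 3 arrays. Gata3 reads 8.59 and 4.73 on EBF1 arrays 1 and 2 and 74.6 on array 3, while the other 3 genes overlap or lie close between groups.

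Lef1 was dim, and Tbx21 and Eomes were dimmer still, in every group. Lef1, an HMG-box relative of Tcf7, read 22.3 to 28.6 (1421299_a_at) on the set 1 controls and 25.3 to 29.3 with EBF1. In set 2 it read 27.2 to 32.04 on the controls against 46.9, 28.8 and 33.7 with PAX5 (log2 change 0.28, limma adjusted p = 0.70). Its other probe set read 18.6 or less on all arrays. Tbx21, which specifies type 1 lymphocytes, read 13.5 to 23.1 on the set 1 controls, 6.39 to 15.6 with EBF1 (log2 change -0.36, adjusted p = 0.51), and 5.37 or less on all arrays of set 2 (0.02 with PAX5, adjusted p = 0.99). Eomes, the T-box factor of natural killer cells, read 19.6 or less on both of its probe sets on all arrays. Values as low as those of Tbx21 and Eomes have no reliable order.

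**Figure D4:**
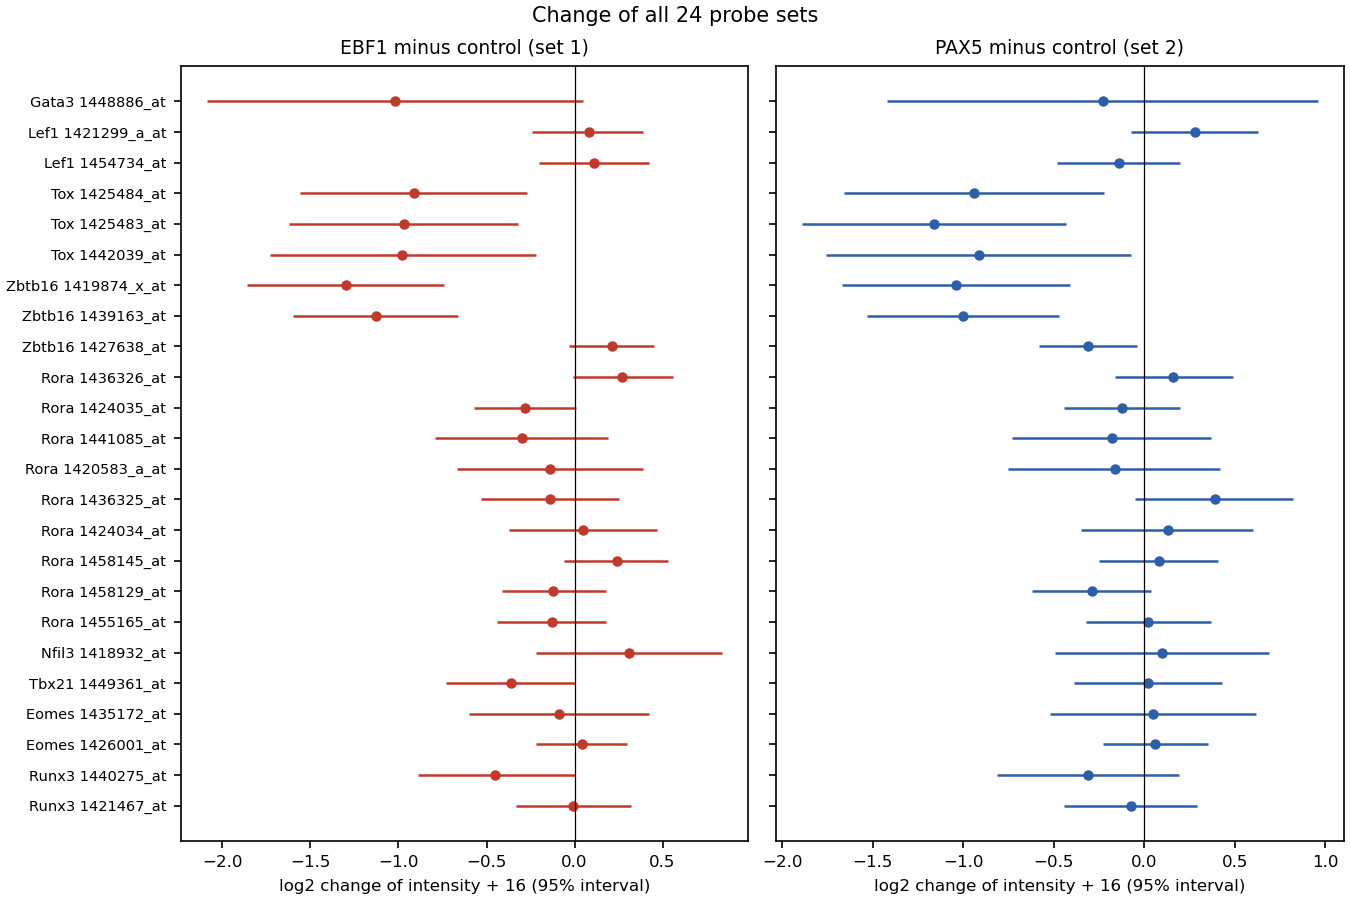
Log2 change of intensity plus 16 (points) with its 95% interval (lines) for all 24 probe sets, EBF1 against the set 1 controls on the left and PAX5 against the set 2 controls on the right. The 3 Tox probe sets and 2 of the 3 Zbtb16 probe sets lie between -1.30 and -0.91 in both panels, with intervals below 0, and most other intervals include 0.

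Counted together, 0 of the 24 probe sets passed limma's test with EBF1, 0 with PAX5 and 0 for the difference. Of all probe sets 0.0977% passed with EBF1 (0.0933% higher, 0.00444% lower), 0.515% with PAX5 (0.464% higher, 0.0511% lower) and 1.05% for the difference, so a count of 0 among 24 is near the background. At unadjusted p under 0.05, 5 passed with EBF1 (9.97% of all probe sets), 6 with PAX5 (8.51%) and 2 for the difference (14.7%). The 5 with EBF1 were the 3 Tox probe sets and Zbtb16 1419874_x_at and 1439163_at, and with PAX5 these and 1427638_at. All arrays of the group lay below all their controls for 3 probe sets with EBF1 (6.14% of all probe sets) and for 7 with PAX5 (8.77%), namely all of Tox, Zbtb16 and Gata3, and above them for 2 with EBF1 (7.06%) and 0 with PAX5 (8.14%). The median log2 change of the 24 was -0.14 with EBF1 and -0.13 with PAX5, beside 0.02 and -0.01 over all probe sets. Both comparisons share their averaged control samples. With the replicate number as a block in set 1 the count with EBF1 stayed 0, with adjusted p = 0.34 for Zbtb16 1419874_x_at and 0.39 for Tox 1425484_at. Of all probe sets 7 passed with this block, which was fitted on set 1 alone with its arrays counted separately. The same fit without the block called 18, and the main fit 44.

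Levels of the same gene in the 2 sets should not be set side by side, and the listed genes show why. The control arrays of equal number were near-identical for most probe sets, yet 4 of the 24 probe sets differed between the control sets by more than 1 in log2, as did 6.01% of all probe sets. Zbtb16 1427638_at was lower in set 2 by -1.22, and Rora 1458145_at by -1.26, while Tox 1442039_at was higher by 1.32 and Rora 1424035_at by 1.17. For Tox 1442039_at the control arrays read 132, 238 and 112 in set 1 and 348, 618 and 307 in set 2, the same order of arrays at another level. The brightest probe sets of Tox, Zbtb16, Runx3, Nfil3 and Gata3 differed by 0.02 to 0.16. No source used here says how probes were summarised.

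**Figure D5:**
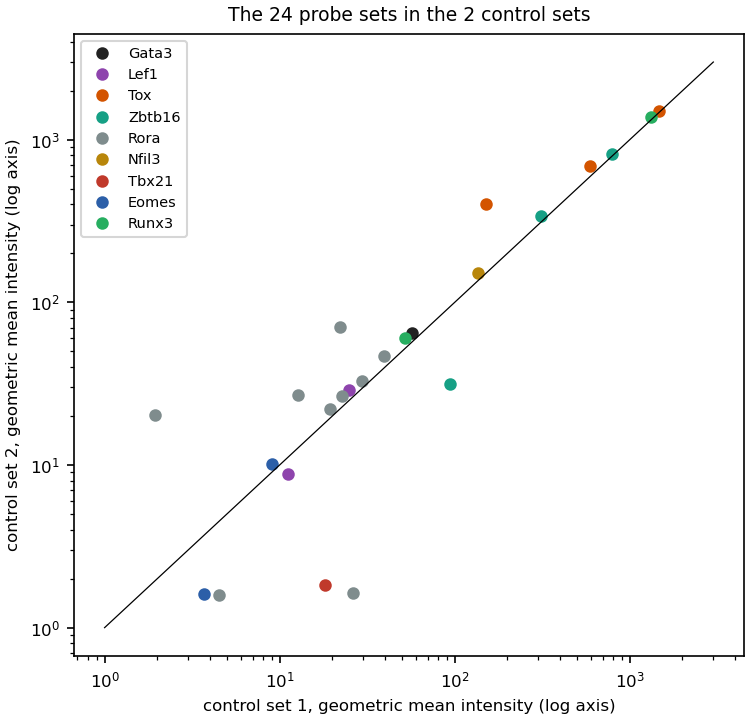
Geometric mean intensity of the 24 probe sets on the 3 control arrays of set 1 (x, log axis) and of set 2 (y, log axis), coloured by gene; the line marks equal values. Bright probe sets lie near the line, while Tox 1442039_at and Zbtb16 1427638_at and several dim Rora probe sets lie off it.

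Other regulators of the same lineages were counted by their brightest probe sets. Of 18 further T-lineage regulators 1 rose and 0 fell with EBF1, and 2 rose and 0 fell with PAX5, beside 0.143% higher and 0.0055% lower with EBF1, and 0.649% and 0.044% with PAX5, over the brightest probe sets of all 18193 genes (1.42% for the difference of the changes). At unadjusted p under 0.05, 11.3% of these passed with EBF1 and 9.06% with PAX5, which is the background of the counts that follow, and their median log2 changes were 0.01 and -0.01. The median of the T-lineage regulators was 0.08 with either virus. Hes1, a repressor downstream of Notch, read 32.3 to 49.9 on the set 1 controls and 903, 604 and 274 with EBF1 (log2 change 3.28, SE 0.39, limma adjusted p = 0.029), and 40.3 to 58.1 on the set 2 controls against 745, 412 and 403 with PAX5 (3.14, SE 0.44, 0.021). The Hes1 call with EBF1 was lost without any one of the control samples, EBF1 array 2 or either PAX5 sample (limma adjusted p = 0.069 to 0.19) and with the replicate block (0.15), and that with PAX5 without any one of the control or PAX5 samples (0.063 to 0.33). Dtx1, a ubiquitin ligase of the Notch pathway, read 146 to 218 on the set 2 controls and 824, 607 and 697 with PAX5 (1.90, SE 0.17, 0.002), and stood at -0.11 with EBF1. Dtx1 passed with PAX5 in all fits that left out 1 sample (adjusted p at most 0.04).

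Of 16 further innate lymphoid and natural killer regulators 0 passed in either comparison by limma, with 3 at unadjusted p under 0.05 with EBF1 (1 higher, 2 lower) and 3 with PAX5, all higher, beside the 11.3% and 9.06% of all genes. Their medians were -0.19 and 0.27. Id2, the inhibitor of E proteins that marks innate lymphoid commitment, read 1756, 1853 and 1306 on the set 1 controls and 630, 648 and 1167 with EBF1, again with array 3 nearest to the controls (log2 change -1.04, SE 0.24, limma adjusted p = 0.19, and -1.32 with adjusted p = 0.011 without array 3). Kit, the stem cell factor receptor, stood at -1.02 with EBF1 (adjusted p = 0.57). With PAX5 the largest differences were those of Bach2, a repressor of effector programmes, at 1.51 (0.19) and Klf2, a trafficking regulator, at 1.43 (0.16).

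Partners of the TCF and LEF factors and relatives of the listed genes were counted next. Of 14 partners and Wnt readouts and of 19 family relatives 0 passed in either comparison by limma, and at unadjusted p under 0.05 there were 2 and 0 with EBF1 and 2 and 3 with PAX5. Their medians lay between -0.13 and 0.08. Bcl9l, a beta-catenin cofactor, read 1219 to 1499 on the set 1 controls and 664, 700 and 952 with EBF1 (log2 change -0.82, limma adjusted p = 0.14, and -0.97 with adjusted p = 0.018 without array 3), and stood at -0.53 with PAX5 (0.41). Tle3, a corepressor, stood at -0.43 with EBF1 (0.33) and Jup, a relative of beta-catenin, at -0.32 with PAX5 (0.62). Among the relatives Runx1 stood at -0.38 with EBF1 (0.71) and 0.47 with PAX5 (0.76), Zbtb7a at 0.23 with EBF1 (0.75) and Dbp at -0.38 with PAX5 (0.79).

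Genes that these factors serve in mature cells were counted likewise. Of 18 T cell effector genes 0 passed with either virus by limma (5 and 5 at unadjusted p under 0.05, beside 11.3% and 9.06% of all genes), with medians of -0.05 and 0.01. Cd2, an adhesion receptor, stood at -1.59 (limma adjusted p = 0.27) and Cd28, a costimulatory receptor, at -0.87 (0.35) with EBF1, and Thy1, a surface glycoprotein, at -1.45 and Lat, a T cell receptor adaptor, at -1.37 (0.30 for both) with PAX5. Of 20 innate lymphoid and natural killer effector genes 1 rose and 0 fell with EBF1, and 0 passed with PAX5, with 6 and 7 at unadjusted p under 0.05, beside 11.3% and 9.06% of all genes, and medians of -0.01 and 0.04. Gzma, a granule protease, read 38.2 to 61.7 on the set 1 controls and 8223, 6138 and 2877 with EBF1 (log2 change 6.43, SE 0.34, adjusted p = 0.00017).

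The interleukin-18 receptor gene Il18r1 read 1648, 1081 and 1120 on the set 1 controls and 315, 310 and 799 with EBF1 (log2 change -1.52, SE 0.34, limma adjusted p = 0.18). With PAX5 it read 320, 277 and 268 against 1625, 1040 and 1140 (-2.02, SE 0.38, adjusted p = 0.08), the largest difference of the list with PAX5. Pdcd1, an inhibitory receptor of activated T cells and innate lymphoid precursors, stood at -1.64 with PAX5 (0.30). Without EBF1 array 3, Il18r1 (-1.96, adjusted p = 0.0037), Il18rap, the other chain of that receptor (-1.25, 0.023), and Klrd1, a natural killer receptor chain (-2.29, 0.036), were called lower with EBF1. With the replicate number as a block in set 2 alone, where each PAX5 array counts by itself, 6 genes of these lists passed with PAX5. Set 2 fitted alone without the block gave 4, and the main fit 2. With the block, the genes that passed beside Hes1 and Dtx1 were Bach2 (1.43, limma adjusted p = 0.031), Thy1 (-1.31, 0.025), Lat (-1.23, 0.037) and Il18r1 (-2.05, 0.014). The numbers were not taken to pair set 2, and the block fit treats the near-identical PAX5 arrays 2 and 3 as replicates.

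The genes whose log2 values over the 8 samples ran closest to those of the brighter listed genes were found by Pearson correlation among 9398 genes with a mean intensity of at least 100. These are descriptions, since the samples share their hybridisations and groups. Nearest to Zbtb16, which ranged over 2.10 in log2, were Mta3 (r = 0.981), Hoxa9 (0.979) and Tespa1 (0.972). Nearest to Tox, with a range of 1.67, were D16Ertd472e (0.967), Efhd2 (0.963) and Zfp946 (0.960). Runx3, with a range of 0.99, ran closest to Ajap1 (0.929), Stap1 (0.926) and Ddhd2 (0.921), and Nfil3, with a range of 0.97, to Tsr3 (0.962), Stxbp5 (0.961) and Cptp (0.954).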

How the data were processed

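Total RNA on 12 one-colour Affymetrix arrays was labelled with biotin, per the labels' protocols. The deposited values are linear intensities, 1 per probe set and array; the authors' probe summary and normalization are not given in the sources used here. Of 45037 probe sets 34945 carried 1 symbol in the platform annotation, 932 several and 9160 none; all 24 studied matched RefSeq's GRCm38.p6 gene table through Entrez IDs.

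Values were taken as log2(intensity + 16), not normalized again and not filtered. Set 2 was shifted gene by gene to the controls of set 1, and then each pair of equally numbered controls, and the pair of PAX5 arrays 2 and 3, were replaced by their mean, after a check over 12889 bright probe sets (mean log2 above 8), in which control arrays of unequal number differed by a robust SD of 0.287 to 0.374. Limma 3.58.1 (R 4.3.3, data.table, version 1.17.8; lmFit, eBayes, 5 residual and 3.68 prior degrees of freedom) fitted 3 group means over all probe sets, with Benjamini-Hochberg adjustment and a threshold of 0.05. The code was tested on simulated data. Genes of the lists were taken by their brightest probe set. Named were all probe sets of the listed genes and, from each list, the genes that passed in either comparison. Where none of a list passed, the 2 largest changes of each comparison at a mean intensity of at least 100 were named. Il18r1, Pdcd1, Itgb7, Prf1 and the genes called without EBF1 array 3 were named after their values were seen. Figures: Python 3.11.15 with pandas 2.3.3, drawn by matplotlib 3.10.9. The genes, the lists, the way of counting arrays and the alternatives were chosen with earlier results of these data known.

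Deviations of control and EBF1 arrays of equal number from their group means correlated at 0.35, 0.61 and 0.39 over bright probe sets (0.18, 0.34 and 0.21 over all), so numbers were taken to pair set 1. The main fit of group means does not use this pairing. The replicate block was fitted only as an alternative, in each set alone with its arrays counted separately. Cd79a and Cd79b passed with EBF1 in the main fit but not with the block (limma adjusted p = 0.22 and 0.088). For control and PAX5 arrays the values were 0.41, 0.19 and 0.33 (0.16, 0.05 and 0.15 over all), and the numbers were not taken to pair set 2, since 1 pair was under 0.1 over all probe sets and arrays 2 and 3 were counted as 1 sample.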

Additional observations from a re-analysis of the deposited data

Results flagged for a closer look

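No listed gene changed differently with EBF1 and with PAX5 by limma's test of the difference, but 4 genes of the 6 pathway lists did, beside 1.42% of the brightest probe sets of all genes. Of the marker lists, 6 of 7 B-lineage genes were higher and 1 myeloid gene, Itgam (-2.14, adjusted p = 0.026), lower by the same test. The remaining B-lineage gene, Blnk, went the other way (-2.51, limma adjusted p = 0.13), with log2 changes of 3.33 with EBF1 and 5.84 with PAX5. Gzma changed by 6.54 more in log2 with EBF1 than with PAX5 (limma adjusted p = 0.00013), where it read 48.4 to 56.6 beside 49.8 to 68.2 in its controls. Dtx1 differed by -2.01 (0.001), with log2 changes of -0.11 with EBF1 and 1.90 with PAX5. Klf2 differed by -1.82 (0.042): it read 93.6 to 237 with EBF1 beside 172 to 209 in its controls, and 1206 to 1613 with PAX5 beside 385 to 602. The Klf2 controls thus stood at different levels in the 2 sets (means 188 and 519). Set 2 was shifted by this offset before the test, and the error of the shift is not part of the test. Cd5, a surface inhibitor of antigen receptor signals, differed by -1.10 (0.036): it read 62.1 to 80.9 with EBF1 beside 86.4 to 127 in its controls, and 165 to 214 with PAX5 beside 100 to 146.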

How the results depend on the processing

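The count of listed probe sets that passed was 0 in each comparison. With EBF1 it moved most without EBF1 array 3. Over the fits that leave out 1 sample it ran from 0 to 5 with EBF1, from 0 to 1 with PAX5 and from 0 to 1 for the difference. Over all probe sets those fits called 18 to 597 with EBF1 and 50 to 263 with PAX5, beside 44 and 232, and in the pathway lists 1 to 7 and 1 to 3, beside 2 and 2. In fits that keep 1 PAX5 sample, its spread is borrowed from the control and EBF1 samples. With all 12 arrays counted separately, 2 listed probe sets passed with EBF1 and 1 with PAX5, of 295 and 638 in all, and 4 list genes with PAX5. With each set fitted alone, 2 listed probe sets passed with PAX5, of 378 in all, with 4 list genes, and 18 probe sets with EBF1, with 1 list gene. With PAX5 arrays 2 and 3 counted separately, 95 and 464 passed in all and 1 listed probe set for the difference. With the replicate number as a block in each set, 7 probe sets passed in all with EBF1, with 1 list gene, and 6 list genes with PAX5; the block changed no call of a listed gene. A pseudocount of 1 gave 96 probe sets with PAX5 and 1 list gene in each comparison, and a pseudocount of 64 gave 14 with EBF1 and 1 list gene in each. The mean of a gene's probe sets gave 153 genes and 1 list gene with PAX5, and eBayes with trend and robust settings 90 probe sets with EBF1. The filter at a mean intensity of 50, quantile normalization within sets and the brightest probe set per gene left all these counts within 1.5 times. Of 1188 values of the 24 probe sets under alternatives 13 passed, and 74 had the other sign, none of these at limma adjusted p under 0.05 in either fit. Among values given in the report, Tbx21 with PAX5 stood at -0.02 with all 12 arrays counted separately, each set fitted alone, PAX5 arrays 2 and 3 counted separately or the replicate block, in place of 0.02. The difference of Tox 1425484_at was -0.03 with all 12 arrays or PAX5 arrays 2 and 3 counted separately. The mean of a gene's probe sets gave -0.06 for Rora with EBF1 and 0.04 for the difference of Zbtb16. Leaving out 1 sample moved the differences of Tox 1425484_at from -0.31 to 0.26, of Zbtb16 1419874_x_at from -0.46 to 0.04 and of Zbtb16 1439163_at from -0.31 to 0.12, Runx3 1421467_at from -0.11 to 0.09 with EBF1 and from -0.15 to 0.02 with PAX5, and, with PAX5, Nfil3 from -0.16 to 0.32 and Tbx21 from -0.11 to 0.16. The causes of these changes were not tested. Dim probe sets, among them all of Lef1, Tbx21 and Eomes, limit what these arrays can show.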

Other observations

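Among genes not described above, Itgb7, an integrin chain of gut-homing lymphocytes, read 991, 1144 and 606 on the set 1 controls and 117, 337 and 452 with EBF1 (log2 change -1.68, limma adjusted p = 0.23), and 828 to 1000 with PAX5 beside 637 to 1148 in its controls. Klrd1 read lower with EBF1 (20.0, 27.9 and 118 against 123 to 336) and higher with PAX5 (626, 437 and 380 against 137 to 368), with log2 changes of -1.70 (adjusted p = 0.31) and 1.27 (0.60) by limma. Prf1, which encodes the pore-forming protein perforin, read 112 to 141 with PAX5 beside 41.6 to 117 in its controls.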
